A study of Oncorhynchus mykiss with 12 samples.

Results

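The mRNA of dorsal skin from wild-type rainbow trout (Oncorhynchus mykiss) is described here as 3 libraries of 1 group. They were chosen by their label, wild-type genotype in the RNA-Seq assay, and make up 3 of the 12 samples of the series and 3 of its 6 mRNA samples. The other 9 samples, yellow mutant mRNA and miRNA of both genotypes, were not used. Per the series text, both colour forms are F1 fish from a cross of a wild-type father and a yellow mutant mother, so the wild-type fish share that cross. The labels give no treatment, age or sex, and they do not say whether a sample is 1 fish or a pool. The spread between the 3 libraries may therefore hold differences between fish, between pieces of skin and between preparations, which cannot be told apart. Values are FPKM, that is, fragments scaled to transcript length and to a library's mapped fragments, which allows levels of different genes to be set side by side.

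Fish skin has no dead cornified layer. Its epidermis is made of living keratinocytes with mucous cells and club cells between them, and it rests on a dermis of fibroblasts, dense type I collagen, scales and pigment cells. Melanophores make melanin, xanthophores hold pteridines and carotenoids, and iridophores hold purine crystals. Fat, blood vessels, nerves and the trunk muscle lie beneath. Rainbow trout descend from an ancestor whose genome doubled, so many genes are present as near-identical copies. The sources used here do not say how such reads were divided among copies, and the value of a single copy is uncertain wherever copies are compared below.

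The table held 42290 entries, and 41894 of them carried an NCBI gene identifier. In the 3 wild-type libraries 4648 entries were listed at 0 throughout, 33307 were above 0 in each, and 23368 had a mean of at least 1 FPKM. A mean of at least 10 FPKM was reached by 4113 entries, of at least 100 by 456 and of at least 1000 by 39. Summed FPKM was 423124 in replicate 1, 396278 in replicate 2 and 410125 in replicate 3. Depth relative to replicate 1, read from the steps of low values, was 0.943 in replicate 2 and 0.903 in replicate 3, and absolute depth is unknown. Across the 23368 entries, which are not independent replicates, Pearson's r of log2(FPKM + 1) was 0.948 between replicates 1 and 2, 0.936 between 1 and 3 and 0.962 between 2 and 3.

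The label dorsal skin was checked against marker genes of skin cell types. Keratinocyte markers were present at 1 FPKM or more in each library for 7 of 9 genes, the other 2, krt4 and epcam, having no entry matched by name, and their summed level was 1791, 2158 and 2200 FPKM in replicates 1, 2 and 3. All markers of mucous cells (4 genes), fibroblasts (5), melanophores (5), xanthophores (4), iridophores (3) and endothelium (4) reached that level in each library. Muscle and blood were present too. Muscle markers reached it for 3 of 5 genes, acta1 and myhz having no entry matched by name, and summed to 2384, 871 and 2479 FPKM. All 4 erythrocyte markers reached it and summed to 1946, 1966 and 720 FPKM. B-cell markers were scarce, with pax5 listed at 0 in each library and cd79b between 1.08 and 1.35 FPKM. Ionocyte identity was also scarce, since the transcription factor foxi3 stayed at or below 0.121 FPKM.

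One library stood apart for genes that skin is not known for. Albumin, the main plasma protein made by liver, summed to 560 FPKM over its 2 entries in replicate 1, against 45.3 in replicate 2 and 47.5 in replicate 3. Apolipoprotein A-I, the main protein of high density lipoprotein, summed to 520, 36.5 and 38.4 FPKM. The fibrinogen chain gene fga summed to 59.5, 3.97 and 3.67 FPKM. The kidney phosphate transporter slc34a1 was listed at 0 in each library. The liver genes were thus at a low, even level in replicates 2 and 3 and far higher in replicate 1. For several of the lists that moved with replicate 1, counts of wide entries are given with and without it. In bulk tissue, fewer cells of a type and less RNA per cell cannot be told apart.

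At the level of single genes, wild-type skin was led by the dermal matrix. The most abundant entry in each library was the type I collagen chain gene col1a1b (100135810), at 8314, 8565 and 6547 FPKM in replicates 1, 2 and 3. The partner chain gene col1a2 (110496633) followed with 6597, 6712 and 5311 FPKM. Of the 10 most abundant entries 7 were collagens, and none of the 10 reached a log2 range of 1 between libraries. The other 3 were a mitochondrial gene, an actin gene and an assembled transcript. COX2, a mitochondrially encoded subunit of cytochrome c oxidase, was at 4581, 4507 and 5787 FPKM. The cytoplasmic actin gene actb (110517977) was at 3792, 4461 and 4749 FPKM. The assembled transcript MSTRG.34472 was at 7260, 5588 and 5692 FPKM. The file gives it a name by likeness to a killifish protein, and its function is not described here.

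Below these came genes of epidermis and of general cell work. The epidermal keratin gene k13 (100136068) stood at 1581, 3022 and 3302 FPKM. The type II keratin gene e1 (100137013) stood at 974, 1546 and 1877 FPKM. Both were lowest in replicate 1. The elongation factor gene eef1ao (100136004), which brings aminoacyl-tRNA to the ribosome, was even at 2626, 2542 and 2602 FPKM. SPARC (110489215), a collagen-binding matrix protein, was at 2835, 2619 and 2033 FPKM. S100A4 (110520890), described in the table as ictacalcin, a calcium-binding protein of the S100 family, was at 2212, 2326 and 2692 FPKM. The retinol-binding protein gene rbp2 (100136008) was at 1848, 1991 and 2159 FPKM, and a lipocalin gene without a symbol (110535402) was at 989, 1427 and 1352 FPKM.

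**Figure D1:**
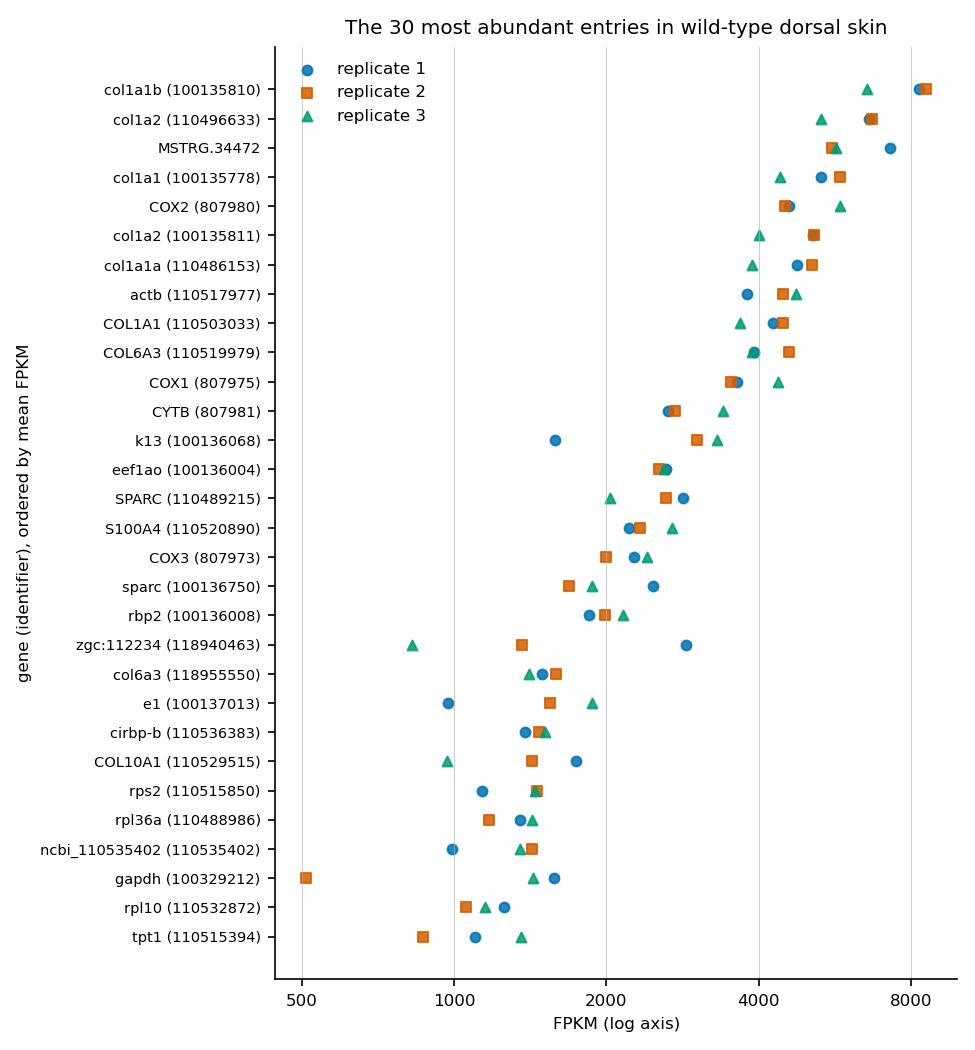
FPKM (log axis) of the 30 entries with the highest mean, 1 row per entry and 1 point per wild-type library. The 3 points lie close together for most entries, while zgc:112234 runs from 826 FPKM in replicate 3 to 2868 in replicate 1 and the gapdh entry drops to 510 FPKM in replicate 2.

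A small set of entries held much of the signal. The 10 most abundant took 12.8% ± 1.01 of summed FPKM (SD, n = 3), the 100 most abundant 36.8% ± 0.589 and the 1000 most abundant 68.6% ± 1.02. The first 209, 223 and 222 entries of replicates 1, 2 and 3 carried 50% of the sum, and 90% was reached with 8255, 9052 and 8940 entries. Among the 100 most abundant entries 45 were cytosolic ribosomal protein genes, 9 were collagens and 6 were mitochondrial transcripts. Of the replication histone list described below there were 7, and the H2A-like histone entry h2ax (118940145), outside that list, was also among the 100. Of the 30 most abundant entries, 3 had a log2 range of at least 1, and these are the keratin k13, a histone and a gapdh entry described below.

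Ribosomal protein genes were the largest class by share. Their 192 entries held 20.4%, 19.4% and 20.1% of summed FPKM in replicates 1, 2 and 3, and 158 of them had a mean of at least 100 FPKM, out of 456 entries at that level. The leading member, rps2 (110515850), was at 1134, 1461 and 1445 FPKM. It was followed by rpl36a (110488986) at 1347, 1172 and 1425 FPKM. Next came rpl10 (110532872) at 1255, 1055 and 1151 FPKM. The class as a whole varied less between libraries than these single members. The summed level of the large subunit genes over that of the small subunit genes was 1.48 ± 0.0486 (SD, n = 3).

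Collagens were the second class. Their 154 entries held 11.04%, 12.19% and 9.36% of summed FPKM. The 4 entries of the type I alpha 1 chain summed to 22668, 23940 and 18500 FPKM. The 2 entries of the type I alpha 2 chain summed to 11716, 11867 and 9320 FPKM. The ratio of both sums was 1.93, 2.02 and 1.99, or 1.98 ± 0.0416 (SD, n = 3), so the chains moved together between libraries although the sums themselves were lowest in replicate 3. COL6A3 (110519979), a chain of the fine type VI filaments around cells, stood at 3908, 4592 and 3885 FPKM. Type X collagen, known in mammals from growth plate cartilage, was abundant, with COL10A1 (110529515) at 1743, 1423 and 969 FPKM. The hemidesmosome collagen gene col17a1b (110529109), which belongs to basal keratinocytes, was at 50.1, 83.9 and 115 FPKM. It was lowest in the library in which type X collagen was highest.

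Other matrix and scale genes were present at high levels too. The second sparc entry (100136750) was at 2473, 1684 and 1871 FPKM. Periostin, Postn (110503830), a matrix protein that binds collagen, was at 1089, 980 and 871 FPKM. Small proteoglycans coat collagen fibrils, and among them lumican, LUM (110490577), was at 598, 555 and 435 FPKM. Decorin, DCN (100301653), was at 517, 532 and 389 FPKM, and both were lowest in replicate 3. The collagen chaperone gene hsp47 (100135844) stood at 774, 797 and 517 FPKM, lowest in replicate 3 as the type I collagens were. The secretory calcium-binding phosphoprotein gene scpp7 (110533145), of a family tied to mineralised tissue in fish, was at 462, 344 and 563 FPKM. The 57 entries of the scale and bone list held 0.836%, 0.694% and 0.569% of summed FPKM. Within it the bone transcription factor gene RUNX2 (110521125) was at 20.5, 15.1 and 9.28 FPKM, whereas cathepsin K, CTSK (110514697), a matrix-degrading protease of osteoclasts, was at 57.7, 52.6 and 42.3 FPKM.

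**Figure D2:**
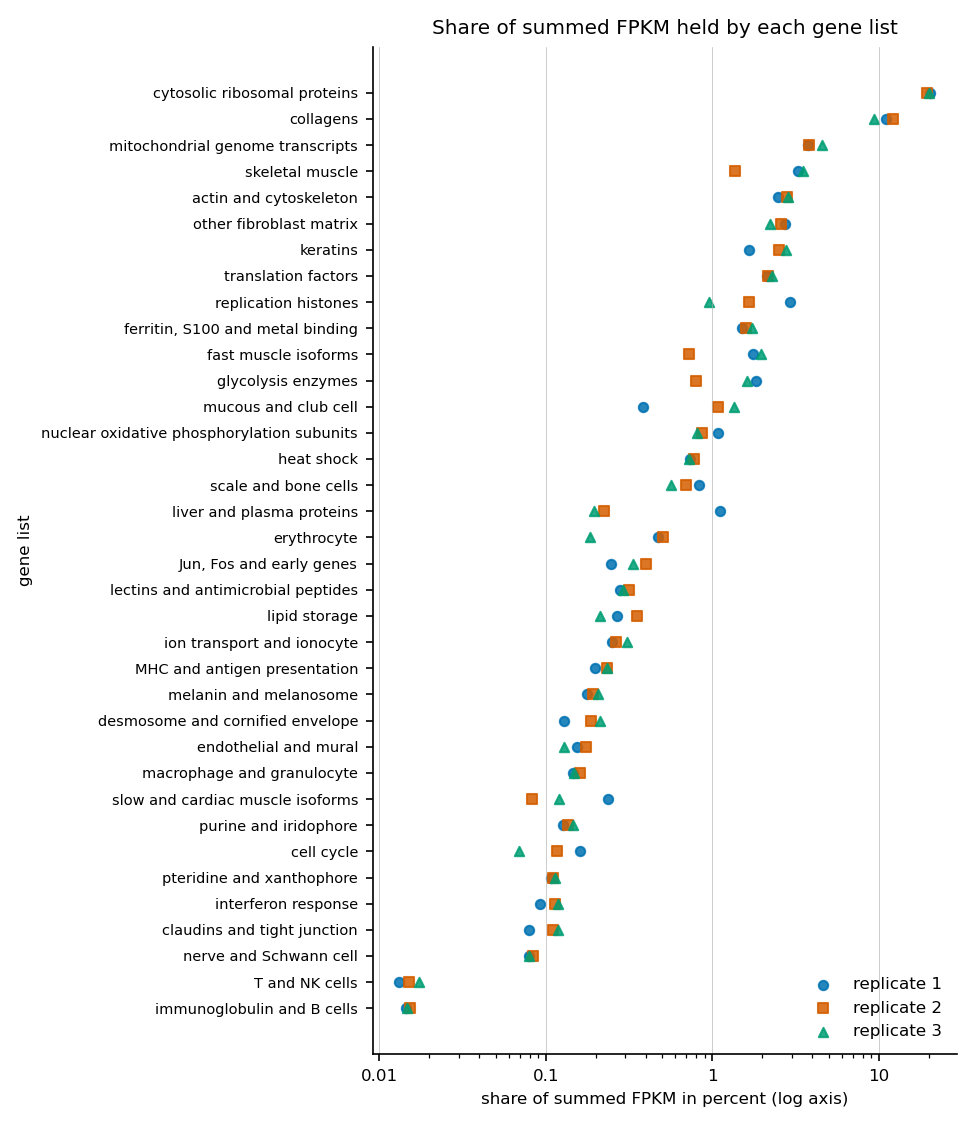
Share of summed FPKM in percent (log axis) held by each of 32 gene lists and 4 lists added after values were seen, 1 point per wild-type library, ordered by the mean. Cytosolic ribosomal proteins and collagens lead, the pigment cell lists lie between 0.108% and 0.207%, and the points spread widely for liver and plasma proteins, mucous and club cell, replication histones and the muscle lists.

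Epidermal genes were abundant as well. The 54 keratin entries held 1.67%, 2.51% and 2.78% of summed FPKM. The basal keratin gene krt5 (100136029) was at 802, 1064 and 1095 FPKM, and the simple-epithelium keratin gene krt18 (110528492) was even at 310, 302 and 316 FPKM. The lower level in replicate 1 was thus seen in k13, e1 and krt5 and not in that krt18 entry. It did not follow the kind of keratin, since krt79 (100136793), described as a simple type II keratin, was at 632, 736 and 714 FPKM. Of 34 keratin entries tested, 21 were lowest in replicate 1, 10 in replicate 2 and 3 in replicate 3. Type I over type II keratins, which pair to form filaments, gave a ratio of 1.83, 1.86 and 1.95, or 1.88 ± 0.0615 (SD, n = 3). Desmosome genes were moderate. PERP (110499286), a membrane protein of desmosomes, was at 81.6, 106 and 136 FPKM. Desmoplakin, DSP (110524668), which ties desmosomes to keratin, was at 57.7, 73.7 and 81.1 FPKM. Desmoglein, Dsg2 (110524639), an adhesion protein, was at 41.1, 67.8 and 82.5 FPKM. All 3 were lowest in replicate 1. The tight junction entry CLDN4 (100642186), described as claudin 30, was also lowest there, at 54.8 FPKM against 114 and 105.

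Mucus genes were abundant and uneven. Gel-forming mucins give fish mucus its viscosity, and agr2 encodes a disulfide isomerase that goblet cells need to fold them. The transcripts MSTRG.32441 and MSTRG.32439, both named mucin-2 in the table, stood at 266, 1414 and 1530 FPKM and at 218, 1100 and 1175 FPKM. Muc2 (110526497) was at 374, 511 and 869 FPKM, and agr2 (110496454) was at 62.7, 110 and 205 FPKM. Replicate 1 was the lowest for each of these entries, but replicates 2 and 3 lay close together for the first pair and apart for Muc2 and agr2. The 183 entries of the list held 0.385%, 1.08% and 1.35% of summed FPKM.

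Pigment cell genes were well above 0 and varied between libraries about as much as other genes. The melanin enzyme gene tyrp1 (110500604) was at 138, 145 and 131 FPKM. The melanosome fibre gene PMEL (110528226) was at 94.4, 88.4 and 104 FPKM. The dopachrome tautomerase gene DCT (110520164) was at 67.0, 50.8 and 66.3 FPKM. The gene of the first enzyme of melanin synthesis, tyr (100135825), was lower, at 15.7, 14.04 and 17.9 FPKM. The melanophore channel gene TRPM1 (110516734) was higher in replicate 3, at 106 FPKM, than in replicates 1 and 2, at 71.5 and 67.4 FPKM. For xanthophores the receptor gene csf1r1 (100136950) was at 44.0, 50.5 and 49.7 FPKM, but macrophages use that receptor too. The GTP cyclohydrolase feedback regulator gene gchfr (110505495), tied to pteridine synthesis, was at 52.2, 50.2 and 83.8 FPKM. For iridophores the purine nucleoside phosphorylase gene pnp4a (110494149), a marker of these cells in zebrafish, was at 42.1, 33.4 and 29.9 FPKM. The lists of melanin, pteridine and purine genes held 0.192% ± 0.0144, 0.111% ± 0.00328 and 0.136% ± 0.00985 of summed FPKM (SD, n = 3). The purine list also took in unrelated genes of like name, such as patatin-like phospholipases, so its share is not that of purine genes alone.

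Genes of the remaining skin cells ranged from abundant to scarce. The invariant chain gene Cd74 (100136156), a partner of MHC class II in antigen-presenting cells, was at 314, 373 and 356 FPKM. The complement gene c1qc (110510309), a macrophage product, was at 58.4, 66.4 and 56.7 FPKM and the lysozyme gene lyz2 (100136768) was at 91.3, 83.9 and 62.0 FPKM. T-cell genes were scarce, with cd3e (100499597) at 2.61, 3.85 and 3.88 FPKM. The smooth muscle gene TAGLN (110503678) was at 190, 183 and 151 FPKM. The fat droplet gene plin1 (110520891) was at 102, 134 and 73.9 FPKM, and the fatty acid synthase gene FASN (110499230) was at 41.6, 47.9 and 11.997 FPKM. Both fat genes were lowest in replicate 3, and FASN more so.

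Some general cell genes were high and even. The constitutive chaperone gene hspa8 (100135841) was at 1026, 981 and 1058 FPKM. The ferritin heavy chain gene frih (100301692), an iron store, was at 700, 625 and 638 FPKM. The actin-binding thymosin gene tmsb (100136027) was at 845, 846 and 1025 FPKM. These 3 genes had log2 ranges of 0.11, 0.16 and 0.28. Their lists were less even, with more entries at a log2 range of at least 1 than the 6.64% of all entries tested. The shares were 13.9% for heat shock, 16% for ferritin, S100 and metal binding and 12.1% for actin and cytoskeleton. The 13 mitochondrial genome transcripts held 3.76%, 3.80% and 4.57% of summed FPKM, highest in replicate 3. The nuclear subunits of oxidative phosphorylation, 167 entries, were instead highest in replicate 1, with 1.08%, 0.864% and 0.814%. Replicate 1 was the highest library for 126 of the 153 nuclear subunit entries with a mean of at least 1 FPKM, or 82.4% against 28.8% of all such entries. It was the highest for the ATP synthase gene ATP5F1B (100136600) at 128, 114 and 91.7 FPKM.

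Water channels, a lectin-like gene and genes of defence were at moderate levels. The aquaglyceroporin gene AQP9 (110521210) was at 296, 251 and 427 FPKM. The skin aquaporin gene aqp3b (110523491) was at 117, 117 and 159 FPKM, and both were highest in replicate 3. The tetranectin gene CLEC3B (110488396), a C-type lectin protein, was at 430, 416 and 350 FPKM. The beta-defensin gene defb4 (100499592), an antimicrobial peptide, was at 73.5, 65.1 and 76.4 FPKM. The interferon-induced gene IFI44L (110491555) was at 19.1, 23.3 and 22.5 FPKM, and the interferon list of 155 entries held 0.108% ± 0.0139 of summed FPKM (SD, n = 3). The ubiquitin ligase gene TRIM25 (110516677), which acts in antiviral sensing, was at 16.9, 22.7 and 26.7 FPKM. No library stood apart for all of the defence genes defb4, IFI44L and TRIM25.

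Most genes differed little between the 3 libraries. Spread was measured as the log2 range, the highest minus the lowest log2(FPKM + 1), and a range of at least 1 is called wide. The median range was 0.32, a ratio in FPKM + 1 of 1.252 between the highest and lowest library. The 95th percentile lay at a ratio in FPKM + 1 of 2.204. Wide entries were 1552 of 23368, which is 6.64%, and this is the background for each count below. The pseudocount of 1 compresses differences of low entries. With it, 4.97% of entries with a mean of 1 to 3 FPKM were wide, 12.4% at 10 to 100 FPKM and 17.03% at 100 to 1000 FPKM, and with a pseudocount of 0.1 these shares were 14.6%, 13.3% and 17.03%. Without replicate 1 the count was 512 (2.19%), without replicate 2 it was 1103 and without replicate 3 it was 776. A pair of libraries also gives less room for a range, so list counts without a replicate are to be read beside these. These counts describe 3 libraries and no test was made.

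**Figure D3:**
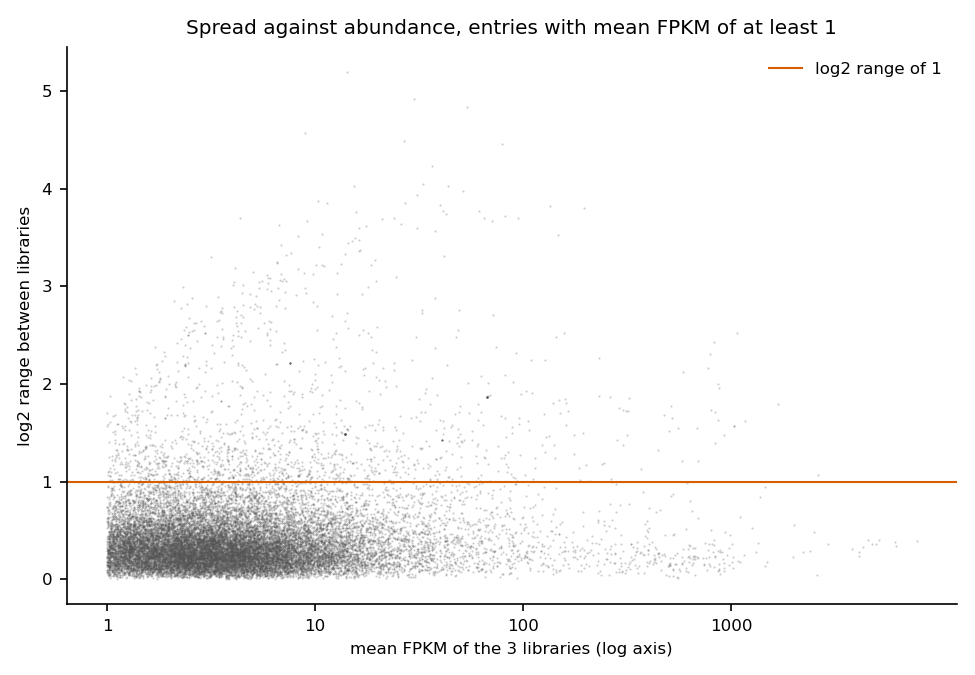
Log2 range of log2(FPKM + 1) between the highest and lowest wild-type library against mean FPKM (log axis), 1 point per entry for the 23368 entries with a mean of at least 1 FPKM. The line marks a range of 1, with 1552 entries at or above it, and the bulk of the points lies near the median of 0.32.

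The most even genes with a mean of at least 10 FPKM did varied work. The splicing factor gene SRSF4 (110496708) was at 14.1 FPKM in each library. The ribosomal protein gene rps9 (110508756) was at 558, 554 and 555 FPKM. The matrix gene thbs2a (110499329), which encodes a thrombospondin, was at 94.0, 93.9 and 93.2 FPKM. The calpain gene CAPN5 (110503344) was at 15.4, 15.5 and 15.3 FPKM, and hebp2 and npm1b were as even. These entries head a list sorted by range, so their order is a description.

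By gene list, the wide share ran from 0% to 75%. Of the 32 lists, 24 had a larger wide share than all entries together and 8 a smaller one. The wide share also differs with abundance, as given above, and this comparison does not allow for the level of list members. In 6 lists it was above 40%, namely erythrocyte, skeletal muscle, mucous and club cell, cell cycle, glycolysis enzymes and keratins. Mitochondrial transcripts had 0 wide members of 13, translation factors 3 of 126 and cytosolic ribosomal proteins 7 of 188. Pigment lists were near the background. Of 164 entries of the pigment lists tested, 10 were wide, or 6.10%, with a median range of 0.33 against 0.32 for all entries. These include entries that the purine list took in by likeness of name and that are not pigment genes. They are patatin-like phospholipases, PNPT1 and pnpo, and the Pnpla2 entry 110522695 is 1 of the wide ones.

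**Figure D4:**
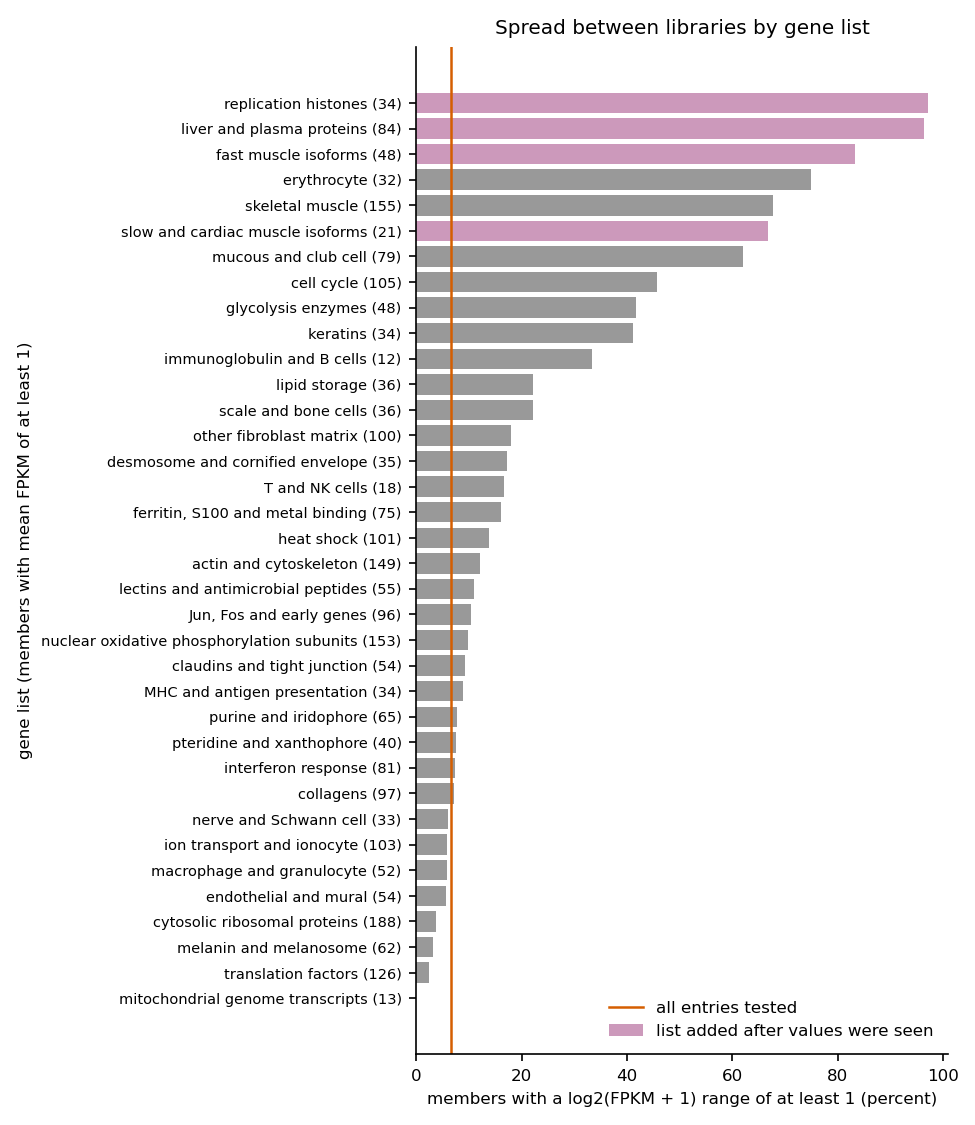
Percentage of list members with a log2(FPKM + 1) range of at least 1 between the 3 wild-type libraries, as bars from 0, with the number of members tested in parentheses and a line at the background of 6.64%. The bars run from 0% for mitochondrial genome transcripts to 75% for the erythrocyte list, and the 4 lists added after values were seen (pink) reach 66.7% to 97.1%.

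Muscle genes were lowest in replicate 2. The fast myosin light chain gene MYLPF (100136718) was at 650, 204 and 699 FPKM. The skeletal actin gene act2 (110485862) was at 1086, 444 and 1235 FPKM. The muscle creatine kinase gene ckmb (110507604) was at 419, 126 and 411 FPKM. Replicates 1 and 3 lay close together for these entries and replicate 2 far below. Of 155 muscle entries tested, 105 were wide, or 67.7% against the background of 6.64%, and replicate 2 was the lowest library for 118, against 26.0% of all entries tested. Without replicate 2 only 31 were wide. The list held 3.29%, 1.36% and 3.52% of summed FPKM.

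The sizes of these differences varied among muscle genes. The parvalbumin gene pvalb1 (100500735), a calcium buffer of fast fibres, was at 1460, 295 and 631 FPKM, but pvalb2 (110538785) was at 741, 291 and 1304 FPKM. The slow myosin light chain gene MYL2 (100136717) was at 306, 52.6 and 114 FPKM. The fast troponin I entry 110521356 (TNNI2) was at 37.3, 76.3 and 154 FPKM, whereas the entry 110492990 of the same name was at 143, 27.9 and 108 FPKM. Over the 16 entries of that name the sum was 412, 215 and 527 FPKM, again lowest in replicate 2. The summed level of fast isoforms over slow and cardiac ones was 7.45, 8.77 and 16.4, so replicates 1 and 3, alike in total muscle signal, differed in this ratio. Both isoform lists were chosen after values were seen.

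The abundant glycolysis genes were lowest in replicate 2. Of 48 entries tested, 20 were wide, and for 18 of these replicate 2 stood apart as the low one. It did so for 14.1% of all wide entries. Over all 48, replicate 2 was the lowest library for 25, or 52.1% against 26.0% of all entries. Replicate 1 was the highest for 33, or 68.8% against 28.8% of all entries. The gapdh entry 100329212 was at 1575, 510 and 1432 FPKM, and the aldolase entry ALDOA (110491790) was at 1195, 386 and 1030 FPKM. Another gapdh entry, 110496191, was even at 259, 237 and 294 FPKM. The muscle enolase ENO3 (110500814) and the muscle phosphoglycerate mutase PGAM2 (110509748) belong to both lists, at 719, 228 and 623 FPKM and at 403, 119 and 346 FPKM. The part of muscle RNA in the glycolysis values was not tested.

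Blood genes were lowest in replicate 3. The alpha globin gene hba4 (100136296) was at 371, 336 and 138 FPKM and the beta globin gene hbb (110486352) at 202, 227 and 68.1 FPKM. The gene of the first enzyme of haem synthesis in red cells, alas2 (110532218), was at 4.56, 4.49 and 1.48 FPKM. Of 32 entries tested, 24 were wide, with replicate 3 apart as the low one for all 24, against 16.2% of all wide entries. Without replicate 3 the number of wide blood entries was 0. Alpha over beta globin stayed at 1.59, 1.46 and 1.502, or 1.52 ± 0.0649 (SD, n = 3), while the sum for alpha globin was 1187, 1160 and 430 FPKM. Among 54 endothelial and mural entries, replicate 3 was the lowest library for 66.7% and replicate 2 the highest for 70.4%, against 30.9% and 30.3% of all entries tested, but 3 were wide. The vessel transcription factor gene Erg (110533560) was at 16.8, 22.2 and 11.8 FPKM. The von Willebrand factor gene vwf (110502677) was at 11.8, 16.1 and 12.8 FPKM, with replicates 1 and 3 close together.

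Cell division genes were highest in replicate 1 and lowest in replicate 3. The mitotic kinase gene cdk1 (100136692) was at 24.3, 11.03 and 4.58 FPKM. The ribonucleotide reductase gene rrm2 (110529451), which supplies DNA precursors, was at 34.4, 24.7 and 12.2 FPKM. The proliferation marker gene mki67 (110491556) was at 15.6, 10.5 and 6.57 FPKM. The 3 libraries were well apart for each. Of 105 entries tested, 48 were wide, or 45.7%, with replicate 1 the highest library for 93 and replicate 3 the lowest for 95, against 28.8% and 30.9% of all entries tested. Without replicate 1 the number of wide entries was 7, or 7.29% against 2.19% of all entries, and without replicate 3 it was 3.

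Replication histones, a list chosen after values were seen, had the same order at a far higher level. The histone H2B entry zgc:112234 (118940463) was at 2868, 1360 and 826 FPKM, and the histone H4 entry H4-I (118940434) was at 1317, 710 and 500 FPKM. Entries named h2ax lie outside the list, among them the H2A-like 118940145 at 1499, 733 and 385 FPKM. The list shares thus do not cover all histones. The list held 2.94%, 1.65% and 0.951% of summed FPKM, and 33 of 34 entries tested were wide. Without replicate 1 there were 2 wide of 33, or 6.06% against 2.19% of all entries. Replicate 2 was above replicate 3 for all 33, against 46.9% of all entries. Most of the 34 entries share all 3 values with another histone entry. The entries are thus not independent observations, and the counts rest on far fewer distinct profiles. Over the whole table, 75 entries with a mean of at least 1 FPKM shared all 3 values with another entry, in 23 sets. The largest set, of 15, is made of histone H1 entries of this list.

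Keratins and mucus genes were lowest in replicate 1. Among keratins 14 of 34 entries tested were wide, or 41.2%, with replicate 1 the lowest library for 61.8% of members and replicate 3 the highest for 70.6%. Over all 23368 entries tested, replicate 1 was the lowest library for 43.1% and replicate 3 the highest for 41.0%. Among mucous and club cell genes 49 of 79 were wide, or 62.0%, with replicate 1 the lowest for 79.7%. Without replicate 1 the wide entries numbered 5 in each of these lists, or 14.3% of keratins and 6.49% of mucous and club cell genes. Over all entries the share was then 2.19%, so both lists stayed above it. Without replicate 3 the wide entries numbered 6 among keratins and 22 among mucous and club cell genes. Desmosome genes had 6 wide of 35, and 1 (2.86%) without replicate 1, with replicate 1 the lowest for 77.1%. Early response genes had 10 wide of 96, or 10.4%, and 1 (1.05%) without replicate 1, which was the lowest library for 69.8%. Among them were fos (110529274), an immediate early transcription factor, at 8.28, 42.9 and 36.7 FPKM, and junb (110493449) at 35.4, 64.4 and 62.0 FPKM.

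**Figure D5:**
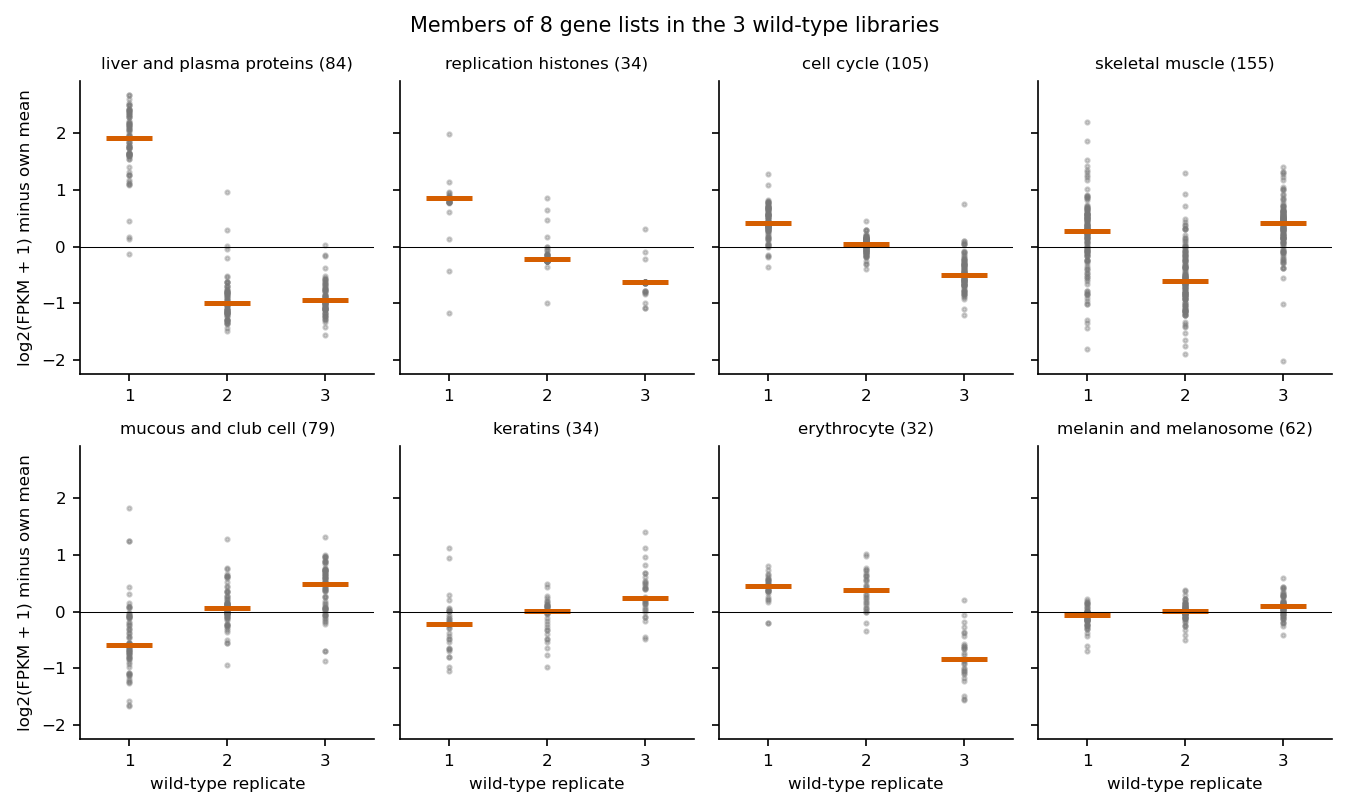
Log2(FPKM + 1) minus the entry's own mean over the 3 libraries (grey points, 1 per entry and library) with the list median (orange bar), for 8 gene lists with the number of entries in parentheses. Replicate 1 is high for liver and plasma proteins with a median of 1.93, replicate 2 is low for skeletal muscle with a median of -0.60, replicate 3 is low for erythrocyte genes with a median of -0.84, and melanin genes stay near 0. The liver and histone lists were chosen after values were seen, and the filter on the mean includes the library in which they are high.

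The liver signal of replicate 1 was seen in many genes. A list of 111 liver and plasma protein entries was chosen after values were seen, so its values describe that library and support nothing further. Replicate 1 was the highest library for 93 of the 111, and 6 were listed at 0 throughout. For the 61 entries with a mean of at least 1 FPKM over replicates 2 and 3, a filter that does not use replicate 1, replicate 1 over the mean of the other libraries ran from 0.856 to 22.01 with a median of 12.6. The plasma apolipoprotein gene apoa-i-1 (100135864) was at 515, 36.1 and 38.1 FPKM. The albumin gene alb1 (100499622) was at 377, 31.8 and 31.8 FPKM. The liver fatty acid binding protein gene fabp10a (110517089) was at 98.8, 6.15 and 4.31 FPKM. The serpinf1 entry 110533699, whose product is also made outside liver, did not share this, at 242, 187 and 218 FPKM.

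The list held 1.12%, 0.224% and 0.195% of summed FPKM. Leaving the liver list out changed the count of wide entries from 1552 to 1471, or 6.32%. The cause of the liver signal was not tested.

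Wide entries were also counted by the library that stood apart. Replicate 1 did so as the high library for 395 entries and as the low one for 326. Replicate 2 did so for 94 and 219 entries and replicate 3 for 267 and 251. With each library scaled to 1000000 these counts were 560 and 783 for replicate 1, 254 and 337 for replicate 2 and 487 and 519 for replicate 3. The order of high and low thus turned for replicate 1. This scaling raises each value, so more entries pass the filter on the mean and the pseudocount weighs less. The counts before and after it thus cover different sets of entries. Of the 1552 wide entries, 429 were in one of the 32 lists, and 81 were in the liver list, of 84 tested there. The 84 passed a filter on a mean that includes replicate 1, and 61 entries reach it over replicates 2 and 3 alone. The list was also chosen after values were seen, so 81 of 84 was near fixed in advance and shows little. The 32 lists hold 3560 of the 42290 entries before the filter on the mean. How many of the 3560 pass that filter is not given here, so 429 is not set against the background of 6.64%.

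Some of the widest single entries belonged to genes of other kinds. The neuronal receptor gene Grm8 (110490742) was at 4.75, 126 and 107 FPKM, low in replicate 1. The nuclear GTPase gene NUGGC (110486950) was at 0.14, 40.7 and 2.04 FPKM, and the galectin gene LGALS1 (118936255) was at 4.45, 89.4 and 5.08 FPKM, both entries high in replicate 2. Over its 7 entries NUGGC summed to 24.9, 76.7 and 46.8 FPKM, a ratio of 3.08 between the highest and lowest library. In all, 37 entries reached 10 FPKM in one library and stayed under 1 FPKM in another. Among these, the cytochrome P450 gene CYP2B4 (110493747) was at 12.8, 0.06 and 0.189 FPKM, high in replicate 1 as the liver genes were.

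For duplicated genes, wide entries did not always mean a wide gene. The ribosomal protein gene rpl9 had an entry, 110515653, at 21.5, 244 and 17.8 FPKM and a second one, 100301698, at 905, 684 and 901 FPKM. Their sum was 926, 928 and 918 FPKM, so the first entry differed 13.7-fold between libraries and the sum 1.01-fold. For the cohesin gene smc3, named here after its values were seen, the entry 110493323 was at 9.74, 10.8 and 0.101 FPKM and the entry 118936477 at 7.84, 5.80 and 16.9 FPKM. Over its 3 entries smc3 summed to 22.98, 22.5 and 20.6 FPKM. The filamin gene FLNA had an entry, 110516429, at 16.3, 16.6 and 3.12 FPKM and a sum of 162, 183 and 170 FPKM. That entry was a small part of the sum and could change it little.

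Of the 39 wide entries that the naming rule took and that shared a name with another entry, 11 were under 2-fold once these were summed. Under 1.25-fold were 5. For FLNA, FTH and COL6A1 among these the wide entry was a small part of the sum, so an even sum was near given. Entries of one name need not be copies of one gene, as the CLDN4 entries include claudin 30 and claudin 28b. For fabp10a the sum stayed as wide as the entry, at 105, 6.24 and 4.59 FPKM. How copies share a gene's signal varied between names. Among 1582 names with exactly 2 entries and a summed mean of at least 10 FPKM, the more abundant copy held a median of 63.8% of the sum. It held at least 90% for 153 names and under 60% for 594 names. The same copy was the more abundant one in all 3 libraries for 1368 of the 1582 names. The actb entry 110517977 held 98.4%, 96.8% and 98.3% of its name's sum, and col1a2 (110496633) held 56.3%, 56.6% and 57.0%.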

How the data were processed

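RNA-Seq of dorsal skin in 3 wild-type samples was used. Per the labels' protocols, tissue was flash-frozen, Trizol was used to extract RNA, and library preparation was Illumina's standard one. The authors deposited FPKM values per gene, per the file headers. Bowtie2 2.2.8 and TopHat2 2.1.1 are listed per the submitters' processing notes. Not given in the sources used here are their roles, the counting tool, the build and the strandedness. Each of the table's per-sample columns was matched to a sample, and 0 were left unmatched. Gene names come from the table, and RefSeq (USDA_OmykA_1.1) gave the biotypes.

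Shares, ranks, SDs and log2 ranges with a pseudocount of 1 were computed in Python 3.11.15 with numpy 2.4.6 and pandas 2.3.3. The relative depth, the log2 range and the library that stands apart were checked on simulated data. Spread was read for entries with a mean of at least 1 FPKM. Gene lists match symbols or product names, may overlap and may hold misplaced members. The samples and lists were chosen with earlier results of these data known. Named genes are the 30 most abundant, the 3 most abundant and the widest of each list, and the 12 widest and 6 most even with a mean of at least 10 FPKM. Other genes were named for their role or after their values were seen. With 1 group, no comparison was tested. Alternatives were other scalings, pseudocounts and filters, and leaving out each replicate.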

Additional observations from a re-analysis of the deposited data

How the results depend on the processing

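No paired analysis was possible because there is 1 group and the results come from no test. A search of promoters was planned and not run, since no sequences were used here. Genes shared with the 30 most abundant by mean numbered 29 when ranked by the median and 27 when ranked by the lowest library. With NCBI genes alone, the 100 most abundant held 36.2%. Without the 10 most abundant entries, the shares were 22.9% for cytosolic ribosomal proteins, 2.14% for collagens, since 7 of the 10 are collagens, and 3.24% for mitochondrial transcripts. Scaling each library to 1000000 raises each value, so 10440, 969 and 175 genes per library reached 10, 100 and 1000. Wide entries then numbered 2940 (10.5%), and library counts moved to 783 (replicate 1 low), 254 and 337 (replicate 2 high and low) and 487 and 519 (replicate 3 high and low). With median-of-ratios scaling wide entries numbered 1541. A pseudocount of 0.1 gave 2802 (11.99%), a mean of at least 5 FPKM gave 817, and no filter gave 4.09%. Leaving out a replicate gave 512 to 1103 wide entries (2.19% to 4.72%). In such pairs, wide members numbered 4 to 5 for ribosomal proteins, 5 to 11 for keratins, 5 to 46 for mucous and club cell, 1 to 7 for collagens, 31 to 77 for skeletal muscle, 0 to 22 for erythrocyte and 3 to 48 for cell cycle. At a mean of at least 5 FPKM they were 24 for mucous and club cell, 3 for collagens and 17 for cell cycle. Cell cycle had 74 with a pseudocount of 0.1, and collagens had 11 when scaled to 1000000. The median deviations of the 8 lists examined kept their sign in the alternatives run. Each was read in the library lowest or highest for that list, and that library was not left out. A kept sign was thus near fixed in advance and shows little. Absolute depth is unknown, so counting error of low values is not given.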
